A study of Mus musculus with 18 samples.

Results

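The 6 mouse genes described here are *Khdc1a*, *Khdc1b*, *Khdc1c*, *Khdc3*, *Ooep* and *Dppa5a*. They were taken by name, as the genes of the KHDC1, DPPA5 and OOEP family, out of 35773 genes counted in the deposited tables. All 6 were found, and 5 of them passed the minimum of 10 counts in at least 3 samples that 16901 genes passed in all. *Khdc1b* did not pass. The members were chosen by name and by their levels in these 6 groups, so the levels are given as a description and no test was applied to them.

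RNA was sequenced from 18 samples of mouse pluripotent stem cells labelled wild type and 129S2/SvPasCrl, 3 in each of 6 groups. ESCs were naive embryonic stem cells in 2i and LIF medium, EpiLCs were epiblast-like cells and EpiSCs were epiblast stem cells. AFSCs were primed cells kept in Activin A and FGF2, and ASCs (advanced pluripotent stem cells) came from AFSCs that had been moved into a medium with Activin A, BMP4, CHIR99021 and LIF. ESC-ASCs were made from ESCs by culture in that same medium. The methods describe lines from females of the 129/sv strain mated with reporter males of a mixed background, so the labelled strain is not the whole background. The study calls the samples of a group biological replicates, and how many lines they stand for is not given in the sources used here. P-values below are set against the spread between these samples, which was uneven. In ESCs replicates 2 and 3 were close (chi-square per degree of freedom of their counts 1.65), and both were further from replicate 1 (37.6 and 36.8). The same form was seen in ASCs (3.61 against 37.7 and 32.7), EpiLCs (2.29 against 25.0 and 21.5) and AFSCs (11.8 against 100.1 and 92.5). In EpiSCs and ESC-ASCs replicate 2 stood apart. The 3 samples of a group may thus not be equally independent.

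The genes of this family each hold a KH-like domain, a fold related to the RNA-binding KH domain, and have been found in placental mammals. *Ooep* (also called Floped) and *Khdc3* (also called Filia) encode proteins of the subcortical maternal complex, an assembly under the membrane of the oocyte and early embryo that cleavage divisions depend on, and Filia also acts in genome stability in embryonic stem cells. *Dppa5a* encodes ESG1, an RNA-binding protein long used as a marker of pluripotent cells and germ cells. *Khdc1* genes are known mostly as transcripts of the oocyte and early embryo.

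In this study the 6 genes fell into 3 kinds. The *Khdc1* genes were found in ESCs and at 0 to 3 counts a sample everywhere else. *Khdc3* was high in ESCs, lower but still plain in ASCs and ESC-ASCs, and nearly absent from the other 3 groups. *Ooep* and *Dppa5a* were as high or higher in ASCs and ESC-ASCs as in ESCs, intermediate in EpiLCs, and at or near 0 in AFSCs and EpiSCs. Levels below are normalised counts per kb, that is fragments counted for a gene, divided by the sample's size factor and by the gene's exonic length. In bulk samples, fewer cells that transcribe a gene and less RNA per cell cannot be told apart.

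The deposited tables place the genes at 3 sites of GRCm38. *Khdc1a* (chromosome 1, 21349641 to 21352200), *Khdc1c* (21368331 to 21370845) and *Khdc1b* (21383556 to 21386373) lie in a row on the plus strand within 36.7 kb. *Dppa5a* (chromosome 9, 78367052 to 78368177) and *Ooep* (78376109 to 78378725) lie on the minus strand with a gap of 7.93 kb between them. *Khdc3* (chromosome 9, 73101836 to 73104438, plus strand) is 5.26 Mb from *Dppa5a*. *Khdc1a*, *Khdc1b*, *Khdc1c*, *Ooep* and *Dppa5a* have 3 exons each in the counted annotation, and *Khdc3* has 4.

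The genes share a feature of structure. They were chosen as a gene family and the 3 *Khdc1* genes are close copies, so they are not independent cases of it. The middle exon of each of the 5 genes with 3 exons was exactly 183 bp long and wholly coding, and the matching exon of *Khdc3* was 180 bp. Of 3005 genes with 3 exons in the files, 16 (0.532%) had a middle exon of 183 bp, these 5 included. The coding sequence ahead of this exon left 1 base over a multiple of 3 in all 6 genes, as it did for 32.5% of 162689 internal coding exons in the GENCODE M21 annotation of the same build. Its length was 100 bases in the 3 *Khdc1* genes, 166 in *Khdc3*, 175 in *Ooep* and 115 in *Dppa5a*. The exons of the *Khdc1* genes are printed here to show how alike these genes are in this part. Each is 183 bases of the 1987 counted for *Khdc1a*, 2236 for *Khdc1b* and 1946 for *Khdc1c*. They do not alone decide how well the counts can be told apart. Capitals mark the 7 positions of 183 that differ among the 3 genes. They are exon 2 at chr1:21350258-21350440 for *Khdc1a*, chr1:21384175-21384357 for *Khdc1b* and chr1:21368892-21369074 for *Khdc1c*, all on the plus strand.
Khdc1a: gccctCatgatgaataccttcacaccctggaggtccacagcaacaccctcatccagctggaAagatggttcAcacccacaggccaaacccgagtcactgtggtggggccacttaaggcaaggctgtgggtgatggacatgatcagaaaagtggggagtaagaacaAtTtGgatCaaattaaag
Khdc1b: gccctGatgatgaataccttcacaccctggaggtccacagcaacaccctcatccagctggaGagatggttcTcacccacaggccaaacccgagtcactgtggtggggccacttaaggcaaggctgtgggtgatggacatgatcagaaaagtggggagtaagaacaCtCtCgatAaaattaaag
Khdc1c: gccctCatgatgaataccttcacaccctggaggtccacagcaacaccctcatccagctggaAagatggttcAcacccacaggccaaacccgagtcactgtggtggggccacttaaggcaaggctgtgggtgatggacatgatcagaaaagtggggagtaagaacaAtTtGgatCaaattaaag

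*Khdc1a* and *Khdc1c* had the same 183 bases, and *Khdc1b* differed from both at 7. Over the whole coding sequence *Khdc1a* and *Khdc1c* were the same at 497 of 498 aligned bases, while *Khdc1b*, whose coding sequence is 378 bases, matched *Khdc1a* at 354 of 378. Of all windows of 50 bases in the *Khdc1a* transcript, 42.2% were found without a mismatch in *Khdc1c* and 4.13% in *Khdc1b*. The authors' counting gave a fragment that maps to several places to each of them. The levels of *Khdc1a* and *Khdc1c* are therefore partly the same fragments. *Khdc1b* shared less of its sequence, with 3.66% of its windows in *Khdc1a*. It had 10 counts in ESCs against 542 for *Khdc1a*, so even a small shared part could weigh on its counts. Whether these were fragments of the other 2 genes was not tested.

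In ESCs *Khdc1a* had 118, 227 and 197 counts in replicates 1, 2 and 3, which came to 117, 133 and 111 normalised counts per kb. *Khdc1c* had 155, 270 and 251 counts, or 157, 162 and 144 per kb, and *Khdc1b* had 4, 3 and 3. The mean levels were 120.2 ± 11.5 for *Khdc1a*, 154 ± 9.12 for *Khdc1c* and 2.19 ± 1.15 for *Khdc1b* (SD, n = 3). The level of *Khdc1c* was 1.21 to 1.34 times that of *Khdc1a* in the 3 ESC samples, and each lay above 73.0% and 77.8% of the tested genes, *Khdc1a* first. The pair was thus at middling levels in ESCs, with the third gene barely counted.

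All 3 ASC samples, all 3 AFSC samples and all 3 EpiSC samples had 0 counts of each *Khdc1* gene. In EpiLCs *Khdc1a* had 0, 1 and 1 counts and *Khdc1c* 0, 1 and 0, and in ESC-ASCs *Khdc1a* had 3, 1 and 0 and *Khdc1c* 3, 2 and 0. *Khdc1b* had 0 counts in all 15 samples outside ESCs. No sample of another group reached the ESC range for any of the 3 genes.

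Taking a count of 3 over the group as the most that a count of 0 allows, *Khdc1a* was at least 224-fold lower in ASCs than in ESCs and *Khdc1c* at least 279-fold lower, while the few counts of *Khdc1b* put its difference at only at least 4.13-fold. ESC-ASCs, the most deeply sequenced group, gave ratios with more counts behind them. *Khdc1a* was 360-fold lower in ESC-ASCs than in ESCs (4 against 542 counts over the groups) and *Khdc1c* 359-fold lower (5 against 676). In EpiLCs the ratio to ESCs was 351 for *Khdc1a*, with a 95% counting interval of 96.7 to 2904, on 2 counts. Intervals and floors of this kind cover counting error only. *Khdc1a* and *Khdc1c* passed the minimum through their ESC counts alone, so that they had to be lower elsewhere, and they share fragments.

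The plot of levels by sample shows the single group in which the *Khdc1* genes were counted, and the step from ESCs to the other groups that differs from gene to gene.

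**Figure D1:**
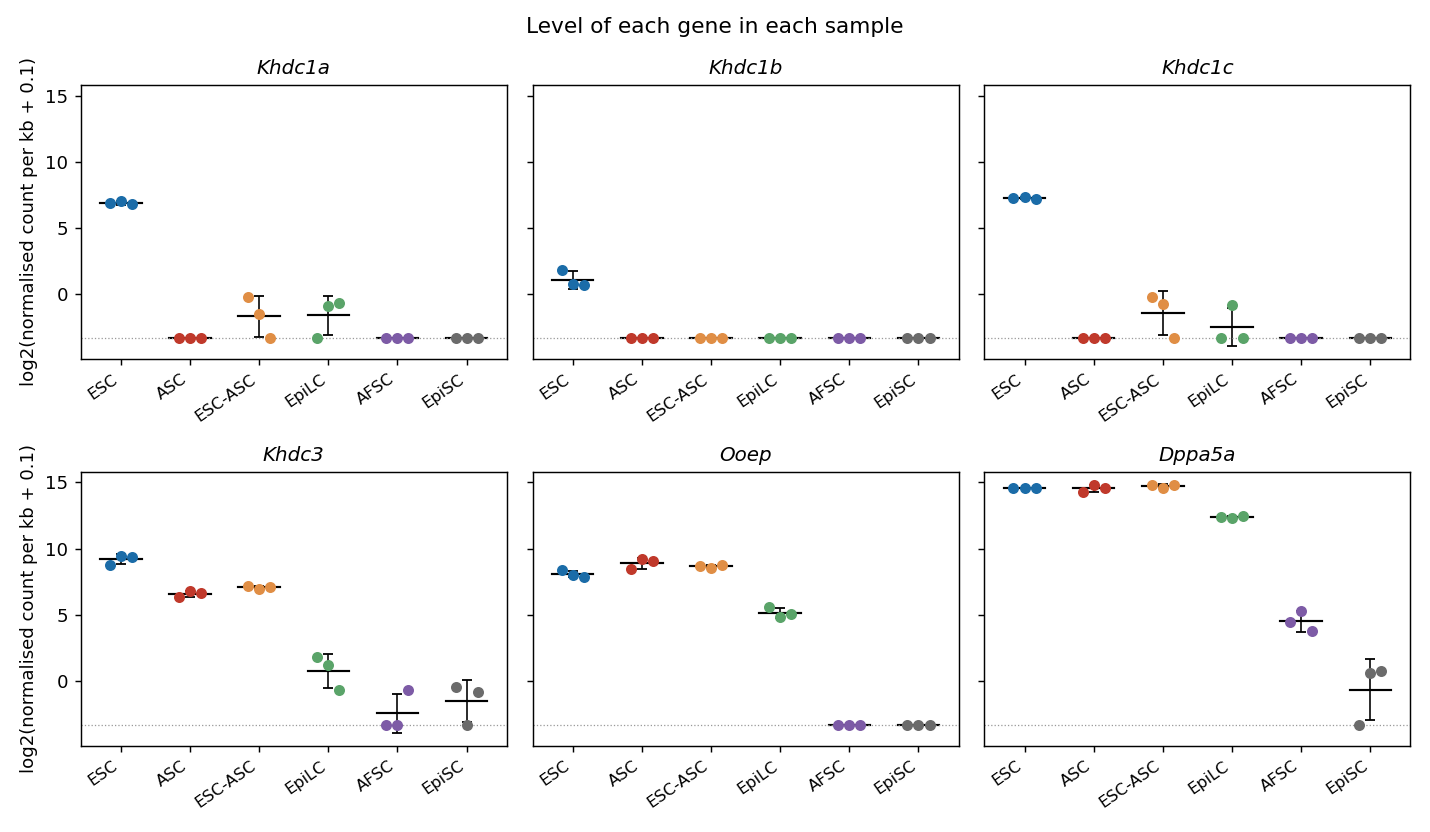
Level of each of the 6 genes in each of the 18 samples, as log2 of normalised counts per kb plus 0.1. Points are samples, horizontal bars are group means, vertical bars are 1 SD (n = 3), and the dotted line is a count of 0. The *Khdc1* genes leave the dotted line mainly in ESCs, while *Dppa5a* stays between 12.3 and 14.8 in ESCs, ASCs, ESC-ASCs and EpiLCs.

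*Khdc3* had 456, 1214 and 1216 counts in ESCs (438, 689 and 662 normalised counts per kb in replicates 1, 2 and 3). ASCs had 152, 217 and 187 counts (80.0, 109.9 and 100.1 per kb) and ESC-ASCs 587, 526 and 562 (145, 125 and 138 per kb). The lowest ESC sample was 3.03 times the highest ESC-ASC sample, and the lowest ESC-ASC sample was above the highest ASC sample. *Khdc3* was thus lower in every ASC and every ESC-ASC sample than in any ESC sample, as were 25.7% and 32.8% of all genes tested. In order the means were 596 ± 138 in ESCs, 136 ± 9.84 in ESC-ASCs and 96.7 ± 15.2 in ASCs (SD, n = 3).

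In the remaining groups *Khdc3* was at the edge of detection. EpiLCs had 6, 5 and 1 counts, AFSCs 0, 0 and 1, and EpiSCs 1, 0 and 1, and the last 2 groups overlapped. All EpiLC samples lay below all ASC samples, as for 35.1% of tested genes, with a pooled level 48.5-fold lower. Against AFSCs the pooled ratio in favour of ASCs was 510 with a 95% counting interval of 91.2 to 20195, on 1 count, and against EpiSCs it was 292 with an interval of 80.5 to 2419, on 2 counts. The pooled level of *Khdc3* was 311-fold lower in EpiLCs than in ESCs, where that of *Ooep* was 7.52-fold lower and that of *Dppa5a* 4.57-fold lower.

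The exons of *Khdc3* overlap those of *Gm20509*, a read-through model that also takes in exons of the next gene, *Rsl24d1*, and fragments over both models were counted for both. Of the 50-base windows of *Khdc3*, 42.8% are also in *Gm20509* and in no other transcript. *Gm20509* was counted at 209 ± 53.3 normalised counts per kb in EpiSCs and 272 ± 125 in AFSCs, where *Khdc3* had 0 or 1 count a sample, so the counts of *Rsl24d1* did not spill into *Khdc3*. In the other direction, the call that *Gm20509* was lower in ASCs than in ESCs (log2 fold change -1.40, edgeR quasi-likelihood test, Benjamini-Hochberg adjusted p = 0.00107) holds fragments of *Khdc3*.

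*Ooep* ran differently from *Khdc3*, its partner in the maternal complex. ESCs had 354, 477 and 441 counts (326, 259.7 and 230.1 normalised counts per kb), ASCs 682, 1202 and 1021 (344, 584 and 524 per kb), and ESC-ASCs 1727, 1640 and 1885 (408, 375 and 443 per kb). The means were 272 ± 49.1 in ESCs, 484 ± 125 in ASCs and 409 ± 34.3 in ESC-ASCs (SD, n = 3). ASCs and ESC-ASCs overlapped, and both lay above every ESC sample, by 1.85-fold and 1.55-fold in pooled level. The gap to the nearest ESC sample was narrow for ASCs, with 344 in the lowest ASC sample and 326 in the highest ESC sample. A full separation of this kind in the upward direction was seen for 30.0% of all tested genes between ASCs and ESCs and for 37.0% between ESC-ASCs and ESCs.

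EpiLCs had 87, 67 and 65 counts of *Ooep* (47.0, 27.7 and 32.5 normalised counts per kb), below every ESC sample and above 50.1% of the tested genes. All 6 AFSC and EpiSC samples had 0 counts. With the floor of 3 counts over a group, *Ooep* was at least 889-fold higher in ASCs than in AFSCs, the cells they were derived from, and at least 1018-fold higher than in EpiSCs. *Khdc3*, *Ooep* and *Dppa5a* were each higher in every ASC sample than in any EpiSC sample, as were 38.5% of tested genes.

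The balance of the pair *Khdc3* and *Ooep* therefore differed between ESCs and the other groups in which both were counted. Per kb, *Khdc3* was 1.34 to 2.88 times *Ooep* in the 3 ESC samples, 0.188 to 0.232 times in ASCs and 0.311 to 0.355 times in ESC-ASCs. In EpiLCs, on 1 to 6 counts of *Khdc3* a sample, it was at most 0.0778 times *Ooep*, lower than in either kind of ASC. None of the 4 groups overlapped another in this ratio. How many other pairs of genes separate the groups in this way was not counted. The lowest ESC ratio, 1.34, was that of replicate 1, the sample with the fewest counts in the series (4961934 in total). It rested on 456 counts of *Khdc3* and 354 of *Ooep*. That sample also stood apart from ESC replicates 2 and 3 in its other genes (chi-square per degree of freedom 37.6 and 36.8, against 1.65 between replicates 2 and 3).

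*Dppa5a* was among the most abundant transcripts of these cells. ESCs had 24235, 24117 and 24127 normalised counts per kb, ASCs 20167, 28969 and 24553, and ESC-ASCs 29107, 24181 and 28169.5. By mean level it ranked 18 in ESCs, 13 in ASCs and 14 in ESC-ASCs among 16901 genes. The 3 groups overlapped, and the mean log2 level differed by 0.01 ± 0.15 (SE) between ASCs and ESCs and by 0.16 ± 0.08 between ESC-ASCs and ESCs. *Dppa5a* made up 0.162% to 0.187% of all counts in these 3 groups.

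In EpiLCs *Dppa5a* was at 5383, 4995 and 5534 normalised counts per kb, lower than in any ESC sample but still at rank 144. In AFSCs it had 10, 21 and 8 counts (21.8, 39.3 and 13.4 per kb), and in EpiSCs 0, 1 and 1. The AFSC samples all lay above the EpiSC samples, as for 24.3% of tested genes, with a pooled ratio of 22.3 and a 95% counting interval of 5.78 to 191. ASCs were 1005-fold above AFSCs in pooled level, and every ASC sample was above every AFSC sample for *Khdc3*, *Ooep* and *Dppa5a*, a separation that 33.7% of the tested genes showed. *Dppa5a* was thus counted in all samples but 1, and was the member whose AFSC and EpiSC samples did not overlap.

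The middle exons of the neighbours *Ooep* (chr9:78377975-78378157, minus strand) and *Dppa5a* (chr9:78367721-78367903, minus strand) are printed to show that exons of the same length differed in sequence. Capitals mark the 71 of 183 positions at which the exons carry the same base, with no gap allowed.
Ooep: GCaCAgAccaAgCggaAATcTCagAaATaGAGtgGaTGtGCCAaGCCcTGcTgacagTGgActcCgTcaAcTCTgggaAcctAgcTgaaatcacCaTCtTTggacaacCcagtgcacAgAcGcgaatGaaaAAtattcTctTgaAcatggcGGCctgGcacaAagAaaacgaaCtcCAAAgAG
Dppa5a: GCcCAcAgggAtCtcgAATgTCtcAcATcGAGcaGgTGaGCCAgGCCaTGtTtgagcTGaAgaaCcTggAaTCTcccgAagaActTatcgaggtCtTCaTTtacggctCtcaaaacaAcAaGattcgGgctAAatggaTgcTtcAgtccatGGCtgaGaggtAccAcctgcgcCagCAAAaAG

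With 38.8% of positions shared, the pair was far from the 96.2% to 100% among the *Khdc1* genes. The exon of *Dppa5a* was no closer to that of *Ooep* than to those of genes on chromosome 1. It shared 75 of 183 positions with *Khdc1a* and *Khdc1c* and 74 with *Khdc1b*. The exon of *Ooep* was closer to that of *Dppa5a*, with 71 positions shared, against 57 with *Khdc1a* and *Khdc1c* and 58 with *Khdc1b*. Over the coding sequence aligned with gaps the order was another. There *Ooep* matched *Dppa5a* at 62.4% of aligned bases, *Khdc1a* at 60.1%, *Khdc1c* at 60.4%, *Khdc1b* at 65.6% and the longer *Khdc3* at 74.3%. *Ooep* had 1.39% of its 50-base windows in transcripts of other genes and none of 100 bases, and no other family member among them. *Dppa5a* had 38.6% of its 50-base windows in 9 other genes, *Dppa5b* and *Dppa5c* among them, but 3.08% of its 100-base windows. Of those 9 genes, 2 are in the deposited tables. *Gm10112* was at 0 counts in all samples, and *Pigp* was at 35.7 to 82.5 normalised counts per kb as group means, highest in EpiSCs, where *Dppa5a* had 2 counts over the group. Fragments that map to *Dppa5a* and also to one of the copies outside the counted annotation would have been counted for *Dppa5a*.

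The differences between groups over the 6 genes are drawn together in the plot of log2 differences. From ESCs to EpiLCs, the step by which cells leave the naive state in culture, the *Khdc1* genes went to at most 1 count a sample. *Khdc1a* and *Khdc1c* had to be lower there, since they passed the minimum through their ESC counts alone, and *Khdc1b* did not pass it. *Khdc3*, *Ooep* and *Dppa5a*, which reached the minimum outside ESCs too, were lower with no overlap, as were 28.8% of the tested genes. The differences for *Khdc1c*, *Khdc1a* and *Khdc3* were -9.77 ± 0.83, -8.52 ± 0.86 and -8.43 ± 0.77 on the log2 scale (SE). With 1 in place of 0.1 added before the logarithm they were -7.10, -6.53 and -7.73, so their order rests on that value. They were smaller for *Ooep* at -2.94 ± 0.27 and *Dppa5a* at -2.19 ± 0.04. *Khdc1a* and *Khdc1c* rested there on 2 counts and 1 count in EpiLCs.

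Between ESCs and ESC-ASCs the same 5 genes differed in direction. *Khdc1a* and *Khdc1c* were nearly absent from ESC-ASCs, *Khdc3* was 4.58-fold lower, *Dppa5a* overlapped and *Ooep* was higher. ASCs and ESC-ASCs, which share a medium but not a starting cell, had *Dppa5a*, *Ooep* and *Khdc3* in the same order of level per kb, and so did EpiLCs. Between them *Khdc3* was higher in every ESC-ASC sample by 0.50 ± 0.15 on the log2 scale, which 30.6% of tested genes were, and *Ooep* and *Dppa5a* overlapped. ASCs against ESCs and ESC-ASCs against ESCs share the ESC samples.

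**Figure D2:**
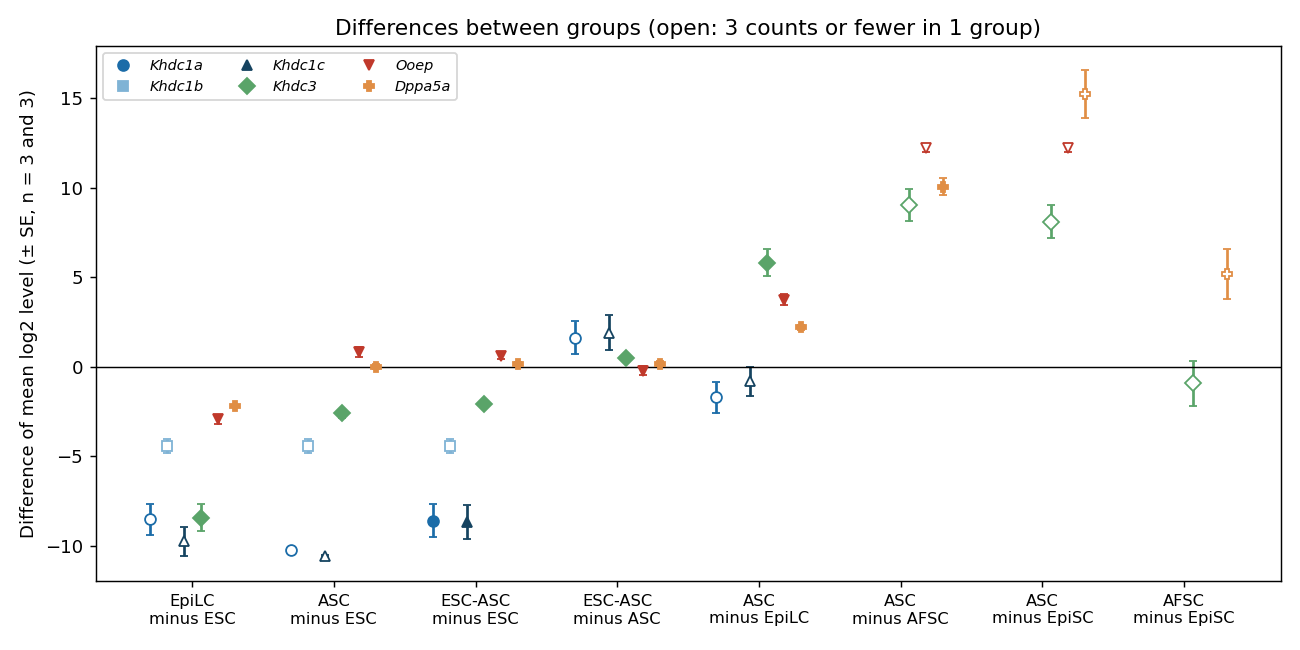
Difference of the mean log2 level of each gene between 2 groups, with its SE (n = 3 in each group), for 8 comparisons. Open symbols are values for which a group had 3 counts or fewer in all, so that their size depends on the value of 0.1 added before the logarithm; genes without a count in both groups are left out. *Khdc1a* and *Khdc1c* sit near -10 in ASC minus ESC, where *Ooep* lies at 0.81 and *Dppa5a* at 0.01.

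Over the 18 samples *Khdc1a* and *Khdc1c* had a Pearson's r of 0.985 on the log2 scale, *Ooep* and *Dppa5a* 0.954, *Khdc3* and *Ooep* 0.899, and *Khdc1a* and *Ooep* 0.425. These describe 6 groups of 3 samples, which are not independent points. The genes most like *Ooep* over the same samples were *Naa11*, *Rhov* and *Triml1* (r = 0.995, 0.994 and 0.993), all at 0 in AFSCs and EpiSCs. Those most like *Dppa5a* were *Arhgap30*, *Lncenc1* and *Gpa33* (0.986, 0.985 and 0.984). *Nr5a2*, *Aqp3* and *Kdm3a* were most like *Khdc3* (0.983, 0.974 and 0.973). *Nr5a2*, a nuclear receptor of the early embryo, had group means of 183 normalised counts per kb in ESCs, 98.2 in ASCs and 70.8 in ESC-ASCs and at most 1.61 in the others. *Khdc1a* had *Fam118a*, *Gss* and *Irf2bp2* (0.940, 0.937 and 0.934), *Khdc1c* had *Gss*, *Fam118a* and *Phf3* (0.947, 0.939 and 0.937), and *Khdc1b* had *Gss*, *Csf3r* and *Paqr8* (0.968, 0.961 and 0.948). *Csf3r*, the receptor of granulocyte colony-stimulating factor, was the only one of these near 0 outside ESCs, at 59.2 in ESCs and at most 0.402 elsewhere.

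The proteins that OOEP and KHDC3 join in the oocyte were followed in a list of 7 partner genes, of which 5 passed the minimum. *Nlrp5* (Mater) had at most 5 counts in a sample and *Nlrp2* had 0 throughout. A gene was called when its adjusted p in the edgeR quasi-likelihood test was below 0.05 and its log2 fold change was beyond 1. Between ASCs and AFSCs 4 of the 5 were higher and 1 was lower, with a median log2 fold change of 2.98 against 0.02 over all tested genes. Over all tested genes 22.7% were called higher and 16.7% lower in this comparison.

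*Tle6*, a partner that binds the other members of the core complex, rose from 7.65 ± 1.31 normalised counts per kb in AFSCs to 49.0 ± 3.11 in ASCs (log2 fold change 2.66 ± 0.19 SE, adjusted p = 8.67e-10). *Nlrp4f* rose from 1.43 ± 0.467 to 58.7 ± 7.04 (5.30 ± 0.26, adjusted p = 2.76e-11). *Nlrp14* had 0 counts in AFSCs and 46 over the 3 ASC samples, at least 14.1-fold higher. *Padi6*, an enzyme-like protein of the oocyte lattices, rose from 0.177 ± 0.307 to 1.56 ± 0.282 (adjusted p = 0.0174), and its call was lost without AFSC replicate 2 (adjusted p = 0.062) or AFSC replicate 3 (adjusted p = 0.0689). *Zbed3* was the 1 lower gene, at 158 ± 14.0 in AFSCs and 44.7 ± 13.6 in ASCs (-1.85 ± 0.17, adjusted p = 3.30e-08). Against *Ooep* and *Khdc3* at 484 and 96.7 per kb in ASCs, the 5 tested partners were thus between 1.56 and 58.7.

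In ESC-ASCs against ESCs, 2 of the 5 partners were called higher and 1 lower, where 19.3% and 17.1% of all genes were. *Padi6* rose from 1.38 ± 0.946 to 5.47 ± 1.59 (2.09 ± 0.54, adjusted p = 0.00252) and *Nlrp14* from 0.796 ± 0.413 to 2.73 ± 0.294 (1.80 ± 0.50, adjusted p = 0.00534). *Nlrp4f* fell from 71.9 ± 13.4 to 22.3 ± 1.23 (-1.71 ± 0.17, adjusted p = 2.30e-07), and *Tle6* was not called at -0.90 ± 0.17 (adjusted p = 0.000119). In ASCs against ESCs *Nlrp14* was called higher (2.55 ± 0.50, adjusted p = 0.000455) and no partner lower, against 18.5% and 7.26% of all genes. The plot of partner genes shows these beside the wider KH-domain family.

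**Figure D3:**
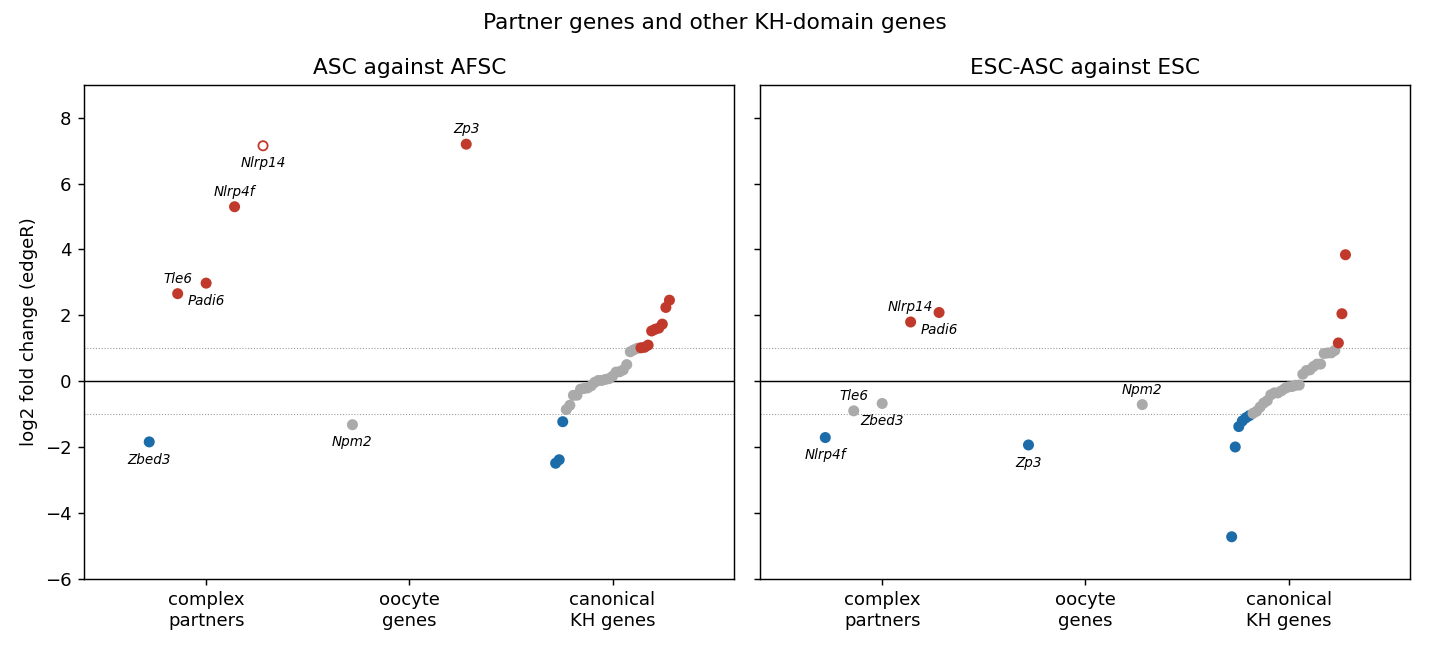
Log2 fold change in edgeR of tested genes of 3 lists, in ASCs against AFSCs (left) and ESC-ASCs against ESCs (right). Each point is a gene, red for called higher, blue for called lower and grey for not called, dotted lines mark a log2 fold change of 1 either way, and the open point is a gene with 0 counts in AFSCs. Of 5 complex partners 4 are red on the left and 2 on the right, while most canonical KH-domain genes are grey in both.

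Other genes of the oocyte were mostly below the minimum. Of 16 oocyte genes, among them the egg coat genes *Zp1* and *Zp2* and the factors *Nobox* and *Figla*, only *Npm2* and *Zp3* reached the minimum. *Zp3*, an egg coat protein, was at 78.2 ± 10.8 in ESCs, 56.8 ± 5.22 in ASCs, 20.4 ± 1.72 in ESC-ASCs, 0.292 in AFSCs and 0 in EpiSCs. It was called higher in ASCs than AFSCs (7.20 ± 0.44, adjusted p = 3.45e-10) and lower in ESC-ASCs than ESCs (-1.94 ± 0.20, adjusted p = 3.41e-07). No call was made between ASCs and ESCs (-0.47 ± 0.20, adjusted p = 0.0555). *Npm2*, a histone chaperone of the egg, had its higher means in AFSCs (11.2 ± 12.3) and EpiSCs (11.4), against 4.29 ± 1.85 in ASCs and 0.778 ± 1.35 in ESCs. It was not called in ASCs against AFSCs (-1.32 ± 0.73, adjusted p = 0.122).

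Canonical KH-domain genes, whose proteins bind RNA in most cell types, were mostly not called, as were most of the genes tested. Of 34 listed, 33 were tested. Between ASCs and AFSCs 9 were called higher and 3 lower, with a median of 0.15, and between ESC-ASCs and ESCs 3 higher and 6 lower, with a median of -0.18. Over all tested genes the shares were 22.7% and 16.7% in the first comparison and 19.3% and 17.1% in the second. *Mex3b* changed most in the second comparison, from 150.3 ± 15.7 in ESCs to 5.71 ± 0.706 in ESC-ASCs (-4.73 ± 0.19, adjusted p = 9.04e-13), with ASCs at 40.0 ± 5.89. *Tdrkh*, a tudor and KH protein of the piRNA pathway, rose from 0.401 ± 0.23 to 5.48 ± 1.32 (3.84 ± 0.43, adjusted p = 4.17e-07).

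Among other genes of the Dppa name, which belong to different families, *Dppa3* (Stella) was lower in both kinds of ASC than in ESCs. So were the *Khdc1* genes and *Khdc3*. In AFSCs, from which ASCs came, the mean of *Dppa3* was 0.865 normalised counts per kb. Its mean was 252 normalised counts per kb in ASCs and 275 in ESC-ASCs, lower than in ESCs in both (log2 fold change -3.29 ± 0.28 SE, adjusted p = 2.93e-08, and -3.16 ± 0.27, adjusted p = 1.53e-08). *Dppa2* was higher in ASCs than in ESCs (1.82 ± 0.15 SE, adjusted p = 1.21e-08) and was not called in ESC-ASCs against ESCs (-0.28 ± 0.14). *Dppa4* was called higher in ESC-ASCs (1.19 ± 0.16, adjusted p = 4.68e-06) and fell short of the fold threshold in ASCs (0.92 ± 0.16, adjusted p = 0.000152). The 13 genes of the 2-cell stage list went against the *Khdc1* genes. All 13 were called higher in ASCs than in ESCs, as were 18.5% of all genes tested, with a median log2 fold change of 6.35, in the same samples in which *Khdc1a*, *Khdc1b* and *Khdc1c* had 0 counts. The list was chosen with earlier results of these data known, and the paper names *Zscan4* genes in ASCs. Its *Zscan4* and *Usp17l* genes are copies that can share fragments, so these are not 13 separate calls.

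Neighbours within 200 kb were taken as a whole to see whether the family's levels were shared around it. Around *Ooep* and *Dppa5a* 13 of 20 genes were tested, of which 4 were called higher in ASCs than in AFSCs and 2 lower, a median of 0.43. Of all tested genes 22.7% and 16.7% were called. The 2 lower neighbours were *Rn7sk* and an unnamed gene at the same place with the same log2 fold change of -1.17, so they are not separate calls. The nearest tested genes, *Ddx43* (an RNA helicase of germ cells and tumours, 17.1 kb ahead of *Ooep*) and *4930542C12Rik* (16.2 kb), both had 0 counts in AFSCs. *Ddx43* had 244 counts in ASCs, at least 74.7-fold higher, and *4930542C12Rik* had 31, at least 9.49-fold higher. *Ddx43* had group means of 29.5 normalised counts per kb in ESCs, 39.5 in ASCs, 25.1 in ESC-ASCs, 17.0 in EpiLCs and 6.81 in EpiSCs, so it was counted in EpiSCs where *Ooep* was not. *Cgas*, the sensor of cytosolic DNA, 51.8 kb ahead of *Ooep*, was higher in ASCs than in AFSCs (2.84, adjusted p = 4.63e-06). *Eef1a1*, the abundant elongation factor gene at 99.7 kb, was not called.

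Around the *Khdc1* genes only *Tmem14a* and *Gsta3* of 5 neighbours were tested. *Gsta3*, a glutathione transferase, had group means of 24.1 normalised counts per kb in ESCs, 15.7 in ASCs and 4.80 in ESC-ASCs. EpiLCs stood at 2.50, and the primed AFSCs and EpiSCs at 0.647 and 0.147. It was thus still counted in ASCs, where the *Khdc1* genes were not (ASCs against ESCs -0.65, adjusted p = 0.0278, not called). *Tmem14a* was called lower in ASCs than in ESCs, the direction of the *Khdc1* genes, with means of 32.3 in ESCs and 14.6 in ASCs (-1.12, adjusted p = 0.00317). Its means were 24.6 in ESC-ASCs (not called against ESCs, -0.36, adjusted p = 0.226), 22.9 in AFSCs, 17.4 in EpiLCs and 11.2 in EpiSCs. It was thus counted in groups where the *Khdc1* genes were at or near 0. Around *Khdc3* 11 of 14 genes were tested, with 3 called higher and 2 lower in ASCs against AFSCs, against the same 22.7% and 16.7% of all genes. Of the 3 higher, *Gm44503* and *Ccpg1* both lay 85.5 kb from *Khdc3* on the same side, so they may share fragments. *Rab27a*, 4.21 kb from *Khdc3*, was not called there (0.37, adjusted p = 0.163) and was higher in ESC-ASCs than in ESCs (2.09, adjusted p = 1.75e-07), the opposite of *Khdc3*.

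**Figure D4:**
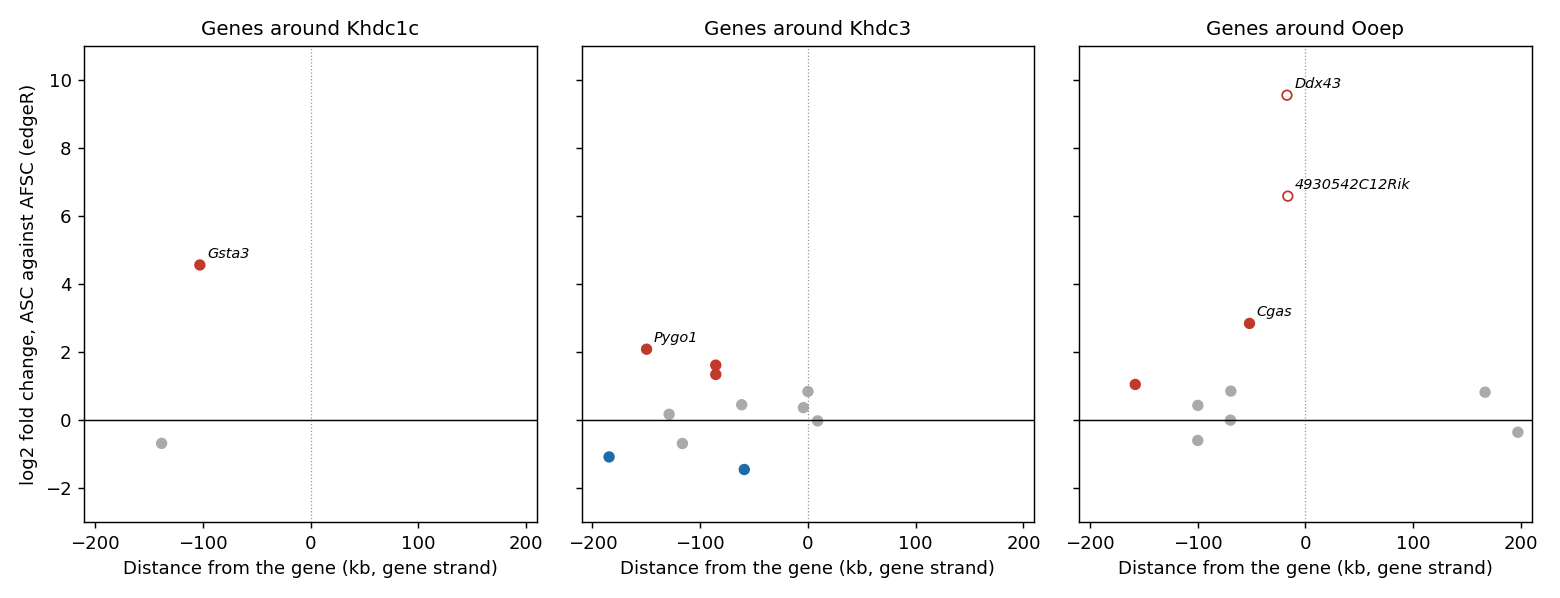
Log2 fold change in edgeR, ASCs against AFSCs, of tested genes within 200 kb of *Khdc1c*, *Khdc3* and *Ooep*, by distance in kb along the strand of the gene named. Red points are called higher, blue lower, grey not called, and open points have 0 counts in AFSCs. *Ddx43* and *4930542C12Rik*, open points ahead of *Ooep*, lie highest, and apart from them, *Gsta3* and *Cgas* the neighbours lie between -1.45 and 2.09.

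Of the whole series, total counts were 4961934 to 9906473 in 5 groups and 17813619 to 18071600 in ESC-ASCs, so that depth and group cannot be told apart there. Naive markers stood high in the groups labelled as naive or kept in LIF. The summed level of 18 naive genes was 8807 to 10277 normalised counts per kb in ASCs, 12535 to 13662 in ESCs, 6486 to 6949 in ESC-ASCs, 2373 to 2832 in EpiLCs and at most 365 in AFSCs and EpiSCs. *Ooep*, *Dppa5a* and *Khdc3* were, like this sum, lower in EpiLCs, AFSCs and EpiSCs than in the other 3 groups. They did not follow its order among those 3, since *Ooep* was lowest in ESCs, where the sum was highest, and *Khdc3* was higher in ESC-ASCs than in ASCs. The part of the sum in their levels was not tested. The summed level of 9 trophoblast markers was at 190 to 309 in ESCs and both kinds of ASC and at most 106 in the other 3 groups, with 0 or 1 marker at 0 counts in each group, and its part was not tested either. In ESC-ASCs most of it was *Ascl2*, at 141 ± 5.36 against 14.2 ± 4.69 in ESCs, while *Cdx2* was at 0.368 ± 0.464 against 94.9 ± 21.0. Of 8 trophoblast markers tested, 2 were called higher and 5 lower in ESC-ASCs against ESCs. Those of 8 primitive endoderm and 9 fibroblast markers did not follow that order. The first was at 149 to 158 in EpiSCs. The second was at 115 to 130 in EpiLCs and 89.3 to 136.9 in ASCs, which overlapped.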

How the data were processed

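RNA-seq counts of 18 samples were analysed, grouped by the sample labels. The authors mapped paired reads to GRCm38 with TopHat2 and counted fragments on Ensembl release 86 with featureCounts 1.5.0-p1 without regard to strand, and deposited raw counts. Fragments that map to several places or overlap several genes were counted at each, so near-identical genes share counts. Genes that reached 10 counts in 3 or more samples were tested with the edgeR 4.0.16 quasi-likelihood test (R 4.3.3, TMM, 1 fit over all samples, no block, Benjamini-Hochberg adjustment over 16901 genes) and called at an adjusted p below 0.05 with a log2 fold change beyond 1. For levels, each count was divided by the size factor (DESeq2 1.42.0) and the exonic kb of its gene, and 0.1 was added before log2. Exon and transcript sequences came from GENCODE M21.

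The members and lists were chosen with earlier results of these data known. Named were every member, up to 3 genes a side of each list in each comparison, tested neighbours and the 3 genes most like each member; not all of these are given. The test was tried on simulated data for ASCs against ESCs. Replicate numbers were checked as pairs: the lowest correlation of the deviations of same-numbered samples was over 0.1 only in EpiLCs against ESCs (0.11 to 0.30). Alternatives were a replicate block, DESeq2, other scalings, filters and pseudocounts, and leaving out each replicate. A floor of 3 counts stood for a count of 0, and intervals were exact binomial at 95%. Protein sequences and bisulfite data were not used here.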

Additional observations from a re-analysis of the deposited data

Results flagged for a closer look

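Opposite directions in 2 cultures moved into the same medium drew attention to 4 genes. They came from the 6 family genes, the 7 complex partners and the 16 oocyte genes. In each, every ASC sample was above every AFSC sample and every ESC-ASC sample was below every ESC sample. The difference between the 2 changes was not tested. Of all tested genes 33.7% showed the first separation and 32.8% the second, and the share with both was not counted. *Khdc3* stood at a log2 difference of 9.04 in ASCs against AFSCs and -2.11 in ESC-ASCs against ESCs. *Tle6* stood at 2.67 and -0.89, *Nlrp4f* at 5.30 and -1.67, and *Zp3* at 8.05 and -1.93. The values of *Khdc3* and *Zp3* against AFSCs rest on at most 1 count a sample in AFSCs, and the 2 comparisons share no samples.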

How the results depend on the processing

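The log2 differences of the 6 genes had no reversal beyond 0.5: of 288 alternative values of 32 such differences, 287 kept their sign and 1 became 0. Of 4 smaller ones, *Dppa5a* in ASCs against ESCs (0.01) turned to -0.01 with TMM-scaled library sizes and to -0.12 without ASC replicate 2. A pseudocount of 1 moved 13 of 36 differences by more than 1 SD, all in pairs with a group near 0, such as *Khdc1a* in ASCs against ESCs from -10.23 to -6.92. Of 27 fold changes of named genes, only that of *Padi6* in ASCs against AFSCs lost its call, as given above, when AFSC replicate 2 or 3 was left out. Without the threshold on fold change the genes called were 8503 in ASCs against ESCs, 10810 against AFSCs, 10102 against EpiLCs and 11244 against EpiSCs, 10161 in ESC-ASCs against ESCs and 8567 against ASCs, 9340 in EpiLCs against ESCs and 6659 in AFSCs against EpiSCs. With the threshold they were 4356, 6659, 5884, 7159, 6153, 4147, 5739 and 3512 in the same order, and every other alternative kept each count within 1.5 times. The replicate block gave 5760 in EpiLCs against ESCs and 4399 in ASCs against ESCs, and it changed no call of a named gene; same-numbered samples correlated at -0.08 to 0.15 in the other comparisons. Depth limits the *Khdc1* genes and *Ooep* where a group at 0 gives only a lower bound.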
